A study of Oryza sativa with 12 samples.

Results

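Os06g0172800 and Os08g0495800, of the raffinose synthase family, and the galactinol synthases GolS1 (Os03g0316200) and GolS2 (Os07g0687900) are described here across 12 RNA sequencing libraries of rice. They are 4 of the 40674 genes in the deposited table, taken by identifier. The genes were selected on the count columns of all 12 libraries, with results from them in view. Which comparison led to the choice is not recorded, so every library counts as used. The values of the 4 genes are therefore a description, with standard errors and without p-values. For them only the number past the threshold of the fit over all genes is given, beside the share of all tested genes past it, and nothing is read from it. Adjusted p-values are given only for other genes of the pathway. Where groups of libraries are said not to overlap, the share of all tested genes without overlap was not taken. Nothing particular to a gene is read from it.

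The libraries came from aerial organs of 12-day-old seedlings of 2 near-isogenic lines, which carry different alleles of the G protein gamma subunit gene TT2. In NIL-TT2HPS32, called HPS32 here, the labels give TT2 as loss-of-function. In NIL-TT2HJX, called HJX here, they give it as wild type. The 4 groups, of 3 libraries each, were HPS32 after 20 h at 42.5 °C (heat), HPS32 at 28 °C, HJX after the same heat, and HJX at 28 °C. All plants were grown at 28 °C before treatment. Each TT2 allele is represented by a single line, and the labels do not say whether replicates were separate plants. The p-values below thus measure only the spread between these libraries, which may be technical.

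Galactinol synthase joins a galactose unit from UDP-galactose to myo-inositol, which yields galactinol and commits carbon to the raffinose family oligosaccharides. Raffinose synthase then moves the galactose from galactinol onto sucrose, which yields raffinose and frees the inositol. These soluble sugars are known from maturing seeds and from leaves under drought, cold or heat, where they serve as osmoprotectants and as a carbon store. The protein domain that marks the raffinose synthase family is shared with the seed imbibition proteins and the alkaline alpha-galactosidases, which remove galactose from raffinose. Membership of the family therefore does not say whether a gene makes or breaks down raffinose.

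In the deposited annotation Os06g0172800 lies on chromosome 6, from 3675795 to 3679085 on the minus strand, with a gene model of 2778 bases. Os08g0495800 lies on chromosome 8, from 24475222 to 24479499 on the plus strand, with 2621 bases. Both carry the description of the raffinose synthase or seed imbibition protein domain. GolS1 lies on chromosome 3, from 11367200 to 11368889 on the plus strand (1402 bases), which places it 5.36 Mb from TT2. GolS2 lies on chromosome 7, from 29220339 to 29221843 on the minus strand (1407 bases). The table describes both as members of glycosyl transferase family 8, a domain that does not by itself name a galactinol synthase, and the names GolS1 and GolS2 come from general knowledge of these identifiers. The genome build is not given in the sources used here. All 4 genes are protein coding, and all 4 passed the filter on low counts that left 25473 tested genes.

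A second gene model lies on the opposite strand of each raffinose family gene. Os06g0172901, within Os06g0172800, had 0 reads in all 12 libraries. Os08g0495866, within Os08g0495800, had 0 to 13 reads per library, with 4 in all in HPS32 under heat, 15 in HPS32 at 28 °C, 31 in HJX under heat and 9 in HJX at 28 °C. The sources do not state that reads were counted by strand, so reads of such partners cannot be told apart. Neither galactinol synthase overlaps another gene model.

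The libraries held 14785975 to 17871972 reads assigned to genes. TT2 itself (Os03g0407400) had only 16 reads over the 3 libraries of HPS32 under heat, 7 in HPS32 at 28 °C, 8 in HJX under heat and 9 in HJX at 28 °C, so its reads do not check the genotype labels. Of 5 leaf markers (Rubisco small subunits and chlorophyll-binding proteins), all were read in every group. Their summed level was 817 to 1061 CPM in HPS32 under heat and 23540 to 25194 CPM in HPS32 at 28 °C, and it was 489 to 636 CPM in HJX under heat and 21709 to 27915 CPM in HJX at 28 °C. CPM is the usual count scaled to library size, here with TMM factors, which correct for differences in RNA composition. The 3 root markers summed to 3.84 to 4.58 CPM in HPS32 under heat and 8.89 to 11.6 CPM in HPS32 at 28 °C, and to 2.06 to 3.62 CPM in HJX under heat and 7.37 to 13.8 CPM in HJX at 28 °C. In each group but HJX at 28 °C, 1 of the 3 had no read. The 3 seed reserve markers, of the glutelin type, summed to 13.9 to 17.4 CPM in HPS32 under heat and 4.58 to 6.55 CPM in HPS32 at 28 °C. In HJX they summed to 19.5 to 24.8 CPM under heat and 3.35 to 5.56 CPM at 28 °C, and in each group 1 of the 3 had no read. Leaf, root and seed markers thus moved with heat beside the genes below, and their part in those values was not tested. In such whole organs, fewer cells of a type and less RNA per cell cannot be told apart.

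**Figure D1:**
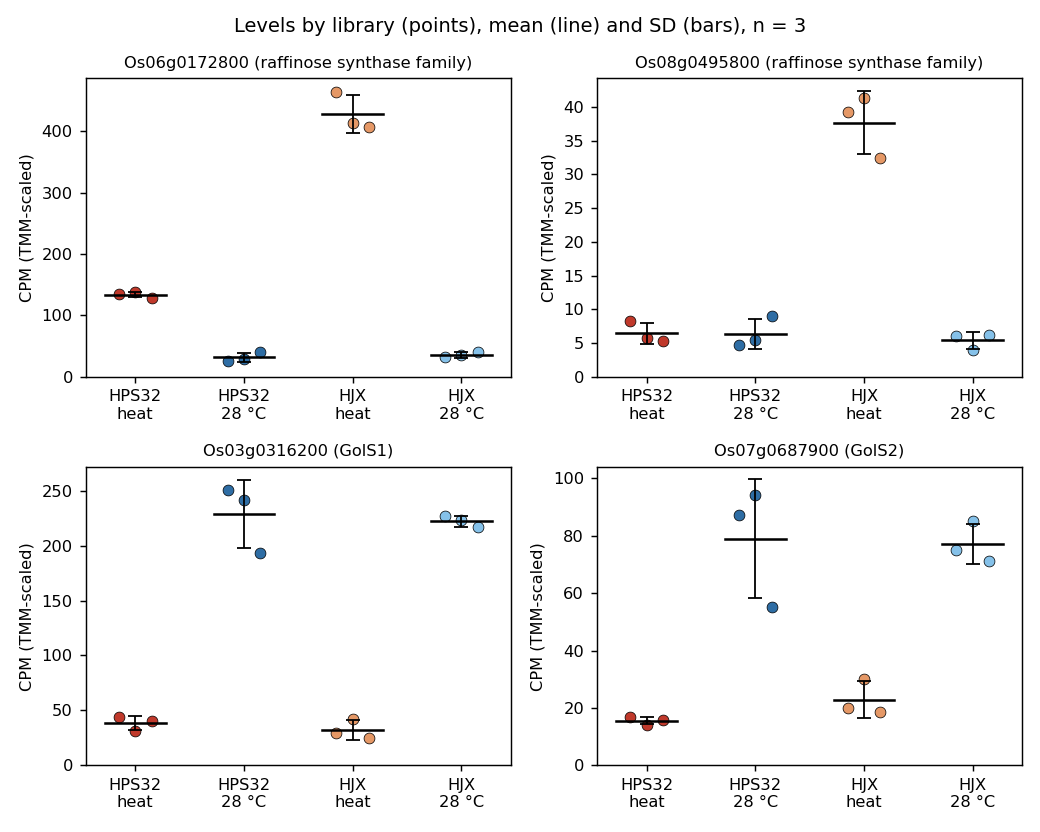
Level of each gene in CPM (TMM-scaled, linear axis from 0) in the 12 libraries, by group: points are libraries, horizontal lines the means and bars the SD (n = 3). Both raffinose family genes peak in HJX under heat, at 428.5 and 37.7 CPM on average, while both galactinol synthases are lower under heat than at 28 °C in each line.

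The balance between the members differed with temperature. Both galactinol synthases were lower under heat than at 28 °C in each line. Os06g0172800 was higher under heat in each line, about 12.0-fold in HJX and 4.22-fold in HPS32. Os08g0495800 was 7.01-fold higher under heat in HJX, and in HPS32 its mean was nearly the same at both temperatures.

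Os06g0172800 was the most highly read of the 4 under heat. In HPS32 it had 135.2, 138.0 and 128.7 CPM under heat, against 25.9, 29.3 and 39.9 CPM at 28 °C. In HJX it had 464, 414 and 408 CPM under heat, against 31.4, 34.9 and 40.8 CPM at 28 °C. The groups of each line lay far apart, and the 28 °C values of the lines overlapped. The log2 fold change under heat was 2.08 ± 0.13 (SE) in HPS32 and 3.59 ± 0.14 in HJX. From the highest group down, the order was HJX under heat, HPS32 under heat, HJX at 28 °C and HPS32 at 28 °C. The last pair did not differ beyond its spread, at 31.7 ± 7.30 CPM in HPS32 and 35.7 ± 4.78 CPM in HJX (SD, n = 3).

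Os08g0495800 was the lowest of the 4 at 28 °C. In HPS32 it had 8.20, 5.70 and 5.35 CPM under heat, against 4.76, 5.48 and 8.94 CPM at 28 °C. In HJX it had 39.2, 41.3 and 32.4 CPM under heat, against 6.04, 3.98 and 6.14 CPM at 28 °C. The HJX libraries under heat stood clear of the rest, and the other 3 groups, next in order HPS32 under heat, HPS32 at 28 °C and HJX at 28 °C, overlapped each other. The log2 fold change under heat was 0.00459 ± 0.25 in HPS32, with a 95% interval from -0.56 to 0.57 (from the SE and 8 residual degrees of freedom), and 2.81 ± 0.23 in HJX. The HPS32 values rest on 65 to 160 reads per library. Under total-count scaling the HPS32 value was 0.57 ± 0.24 in place of near 0.

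GolS1 was the most highly read of the 4 at 28 °C. In HPS32 it had 44.3, 31.3 and 40.1 CPM under heat, against 250.9, 241.5 and 193.1 CPM at 28 °C. In HJX it had 29.6, 42.6 and 25.05 CPM under heat, against 226.4, 223.1 and 216.4 CPM at 28 °C. Every library under heat lay below every library at 28 °C, and the lines overlapped at both temperatures. The log2 fold change under heat was -2.57 ± 0.20 in HPS32 and -2.78 ± 0.20 in HJX, which is 5.93-fold and 6.86-fold lower. The order of the groups was HPS32 and HJX at 28 °C, then HPS32 and HJX under heat, with no difference beyond the spread within either pair.

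GolS2 had the same order of temperatures as GolS1 at a lower level. In HPS32 it had 16.9, 14.2 and 15.7 CPM under heat, against 87.2, 94.1 and 55.3 CPM at 28 °C. In HJX it had 19.9, 30.2 and 18.8 CPM under heat, against 75.0, 84.9 and 71.3 CPM at 28 °C. Here, too, the temperatures did not overlap in either line. The log2 fold change under heat was -2.34 ± 0.24 in HPS32 and -1.75 ± 0.23 in HJX, which is 5.06-fold and 3.37-fold lower. The order of the groups was HPS32 and HJX at 28 °C, which overlapped, then HJX and HPS32 under heat, where all 3 HPS32 libraries lay below all 3 HJX libraries.

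By edgeR's quasi-likelihood test at an adjusted p of 0.05, 1 of the 4 genes was called higher under heat in HPS32 and 2 lower, where 70.4% of all tested genes were called, 34% higher and 36.4% lower. In HJX under heat 2 were called higher and 2 lower, where 74.9% of all tested genes were called, 38.1% higher and 36.8% lower. The median log2 fold change over all tested genes was -0.03 in HPS32 and 0.03 in HJX. The authors' deposited table gave, for heat, 2.12, 0.0455, -2.53 and -2.30 in HPS32 for Os06g0172800, Os08g0495800, GolS1 and GolS2. For HJX the authors' deposited table gave 3.57, 2.80, -2.79 and -1.76 in the same order.

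**Figure D2:**
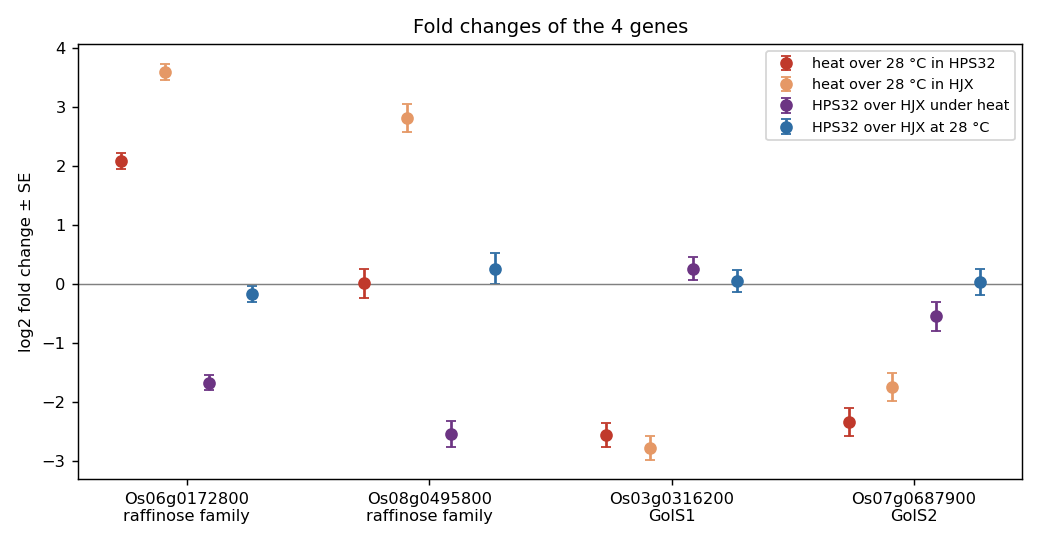
Log2 fold changes (points) with their SE (bars) of the 4 genes for heat over 28 °C in HPS32, heat over 28 °C in HJX, HPS32 over HJX under heat and HPS32 over HJX at 28 °C, from the fit on 12 libraries. The 28 °C values of the lines lie near 0 for every gene, and the lines part under heat mainly for Os06g0172800 (-1.68) and Os08g0495800 (-2.55).

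The lines were next set against each other under heat. Both raffinose family genes were lower in HPS32 than in HJX. Os06g0172800 averaged 133.9 ± 4.77 CPM in HPS32 and 428.5 ± 31.0 CPM in HJX, 3.20-fold lower in HPS32 (log2 -1.68 ± 0.13). Os08g0495800 averaged 6.42 ± 1.55 CPM in HPS32 and 37.7 ± 4.68 CPM in HJX, 5.85-fold lower in HPS32 (log2 -2.55 ± 0.22). For neither gene did the lines overlap, and how many of all tested genes share this was not counted.

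The galactinol synthases differed less between the lines under heat. GolS1 averaged 38.5 ± 6.64 CPM in HPS32 and 32.4 ± 9.09 CPM in HJX (log2 0.25 ± 0.20, 95% interval from -0.20 to 0.71). GolS2 averaged 15.6 ± 1.32 CPM in HPS32 and 22.9 ± 6.29 CPM in HJX (log2 -0.55 ± 0.24, 95% interval from -1.11 to 0.000986). The interval of GolS1 spans 0, and that of GolS2 reaches it. Of the 4 genes, 2 were called lower in HPS32 and none higher, where 45.2% of all tested genes were called, 21.6% higher and 23.6% lower. The number called lower was not stable. It was 3 with DESeq2 and with the heat groups fitted alone. It was also 3 without the third HPS32 replicate at 28 °C, and without replicate 3 of both lines there. Heat library 2 of HJX held the highest value of both galactinol synthases in that group. Without that library, GolS1 was at log2 0.51 and GolS2 at -0.30, with 1 gene called higher in HPS32. The share of all tested genes called was not taken for these fits.

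At 28 °C the lines were close for all 4 genes. GolS1 averaged 228.5 ± 31.0 CPM in HPS32 and 222.0 ± 5.10 CPM in HJX, and GolS2 78.9 ± 20.7 CPM in HPS32 and 77.1 ± 7.05 CPM in HJX. Os08g0495800 averaged 6.39 ± 2.24 CPM in HPS32 and 5.39 ± 1.22 CPM in HJX. The log2 differences were 0.04 ± 0.19 for GolS1, 0.03 ± 0.22 for GolS2, 0.26 ± 0.26 for Os08g0495800 and -0.17 ± 0.14 for Os06g0172800. Their 95% intervals all span 0, the widest from -0.34 to 0.85 for Os08g0495800. None of the 4 was called at 28 °C, where edgeR called 0.0864% of all tested genes, 0.0432% higher and 0.0432% lower in HPS32.

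The difference between the heat responses, HPS32 minus HJX, was -1.51 ± 0.19 on the log2 scale for Os06g0172800 and -2.80 ± 0.34 for Os08g0495800. It was -0.59 ± 0.32 for GolS2 (95% interval from -1.33 to 0.16) and 0.21 ± 0.27 for GolS1 (-0.41 to 0.83). For this difference 2 of the 4 genes were called lower and none higher, where 29.3% of all tested genes were called, 13.3% higher and 16% lower. Without the third HPS32 replicate at 28 °C, 3 were called lower, and the share of all tested genes was not taken for that fit.

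**Figure D3:**
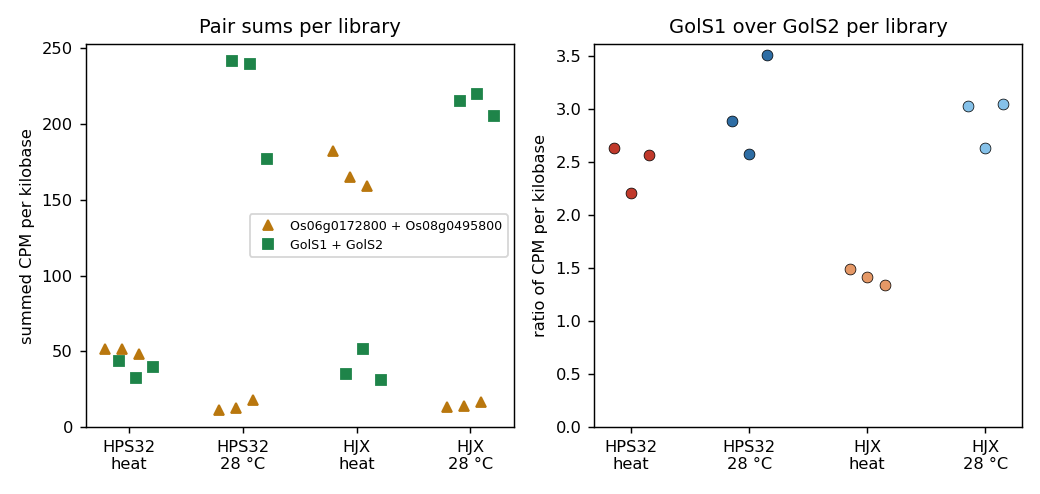
Left, summed CPM per kilobase of the raffinose family pair (triangles) and of the galactinol synthase pair (squares) in each of the 12 libraries; right, the ratio of GolS1 to GolS2 CPM per kilobase in each library. The galactinol pair leads at 28 °C, the raffinose family pair leads under heat, and the GolS1 to GolS2 ratio is lowest in HJX under heat (1.34 to 1.49).

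Levels were compared between genes per length, as TMM-scaled CPM per kilobase of gene model. At 28 °C the order in every library was GolS1, GolS2, Os06g0172800, Os08g0495800. Under heat Os06g0172800 came first in every library and GolS1 next. The summed CPM per kilobase of the raffinose family pair was 50.7 ± 1.99 in HPS32 under heat and 13.9 ± 3.48 in HPS32 at 28 °C, and 168.6 ± 12.0 in HJX under heat and 14.9 ± 1.86 in HJX at 28 °C. That of the galactinol synthase pair was 38.6 ± 5.67 in HPS32 under heat and 219.0 ± 36.4 in HPS32 at 28 °C, and 39.4 ± 10.9 in HJX under heat and 213.1 ± 7.38 in HJX at 28 °C (SD, n = 3). The galactinol pair thus led at 28 °C and the raffinose family pair under heat, in 12 of 12 libraries. This holds for the chosen genes alone, since the sums leave out the 5 other tested genes of the raffinose family. Of those, Os04g0481100 averaged 161.2 CPM in HPS32 and 157.5 CPM in HJX at 28 °C, above both genes of the pair there. The sums are also no measure of raffinose synthesis, since the family includes enzymes that break raffinose down. The raffinose family pair per galactinol pair came to a ratio of 1.34 ± 0.23 in HPS32 under heat and 0.0665 ± 0.030 in HPS32 at 28 °C. In HJX this ratio was 4.48 ± 1.13 under heat and 0.0702 ± 0.011 at 28 °C.

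Within each pair the proportions also shifted. GolS1 was 2.47 ± 0.23 times GolS2 by CPM per kilobase in HPS32 under heat and 2.99 ± 0.47 times in HPS32 at 28 °C. In HJX it was 1.42 ± 0.077 times GolS2 under heat and 2.90 ± 0.23 times at 28 °C, with no overlap between the temperatures. Os06g0172800 was 20.4 ± 4.16 times Os08g0495800 by CPM per kilobase in HPS32 under heat and 4.80 ± 0.51 times in HPS32 at 28 °C. In HJX it was 10.8 ± 1.25 times Os08g0495800 under heat and 6.48 ± 1.70 times at 28 °C.

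Replicates of a group differed in a shared way at 28 °C. In both lines, replicate 3 held the highest value of both raffinose family genes and the lowest value of both galactinol synthases. In HPS32 replicate 3 deviated from its group mean by 0.35 for Os06g0172800, 0.53 for Os08g0495800, -0.23 for GolS1 and -0.47 for GolS2 on the log2 scale. In HJX replicate 3 deviated by 0.20, 0.21, -0.04 and -0.11 for the same genes. For Os08g0495800 in HJX, replicate 1 was close to replicate 3, at 0.19, so its rank there says little. Without replicate 3 of both lines, the heat response of Os06g0172800 in HPS32 was 2.28 ± 0.09 in place of 2.08 ± 0.13. Under heat the highest values of both galactinol synthases in HJX came from the same library, 0.43 above the group mean for each.

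The genes with the most similar profile were named by the smallest root mean square difference in centred log2 CPM over the 12 libraries, among 20254 genes. For Os06g0172800 these were the aldose 1-epimerase Os05g0569400 (0.149), an unannotated transcript on chromosome 8 from 25116116 (0.149) and the MatE transporter Os05g0554000 (0.18). For Os08g0495800 they were the thaumatin family gene Os12g0569300 (0.22), the Kelch gene Os04g0380300 (0.228) and Os10g0565150 of glycosyl hydrolase family 14 (0.259), the family of beta-amylases. GolS1 was nearest to the NmrA-like gene Os12g0263200 (0.163), to Os05g0164100 with a 6-phosphofructo-2-kinase domain (0.174) and to Os02g0199600 (0.178). GolS2 was nearest to an unannotated bHLH-domain transcript on chromosome 1 from 5163049 (0.197), the thaumatin family gene Os12g0630200 (0.223) and the oligopeptide transporter Os04g0390500 (0.223). By the same measure GolS1 and GolS2 differed by 0.448, and the raffinose family genes by 0.82. The nearest genes are the smallest differences of a search over 20254 genes, so these pairs cannot be judged against them.

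**Figure D4:**
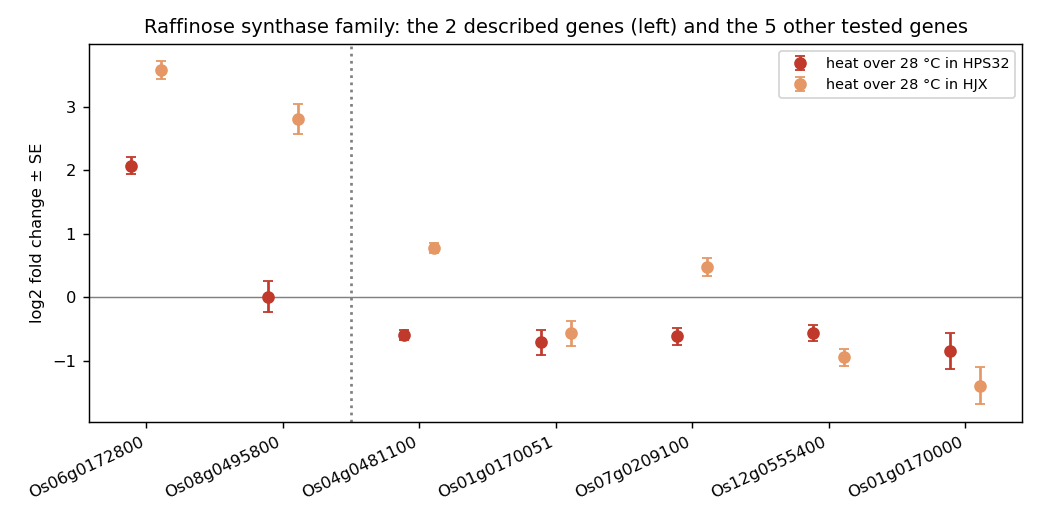
Log2 fold change under heat over 28 °C (points) with SE (bars) in HPS32 and in HJX, for the 2 raffinose family genes described and, right of the dotted line, the 5 other tested genes of the family. The 5 others lie between -1.40 and 0.77, and Os04g0481100 and Os07g0209100 lie on opposite sides of 0 in the lines.

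Of the 11 other genes with the raffinose synthase domain, 5 passed the filter on low counts, and their changes were smaller than those of Os06g0172800. Under heat in HPS32 all 5 fell, by 0.56 to 0.85 on the log2 scale, although under total-count scaling none was called and Os12g0555400 was at 0.0026. In HJX Os04g0481100 and Os07g0209100 rose and the other three fell. Os04g0481100, the most highly read of these, averaged 107.0 ± 5.27 CPM in HPS32 under heat and 161.2 ± 14.6 CPM in HPS32 at 28 °C, against 268.8 ± 7.18 CPM in HJX under heat and 157.5 ± 13.7 CPM in HJX at 28 °C. Its response was -0.59 ± 0.08 in HPS32 (edgeR adjusted p = 2.09e-06, 0.767 under total counts) and 0.77 ± 0.08 in HJX (adjusted p = 4.23e-08). The difference of its responses was -1.36 ± 0.11 (edgeR adjusted p = 5.5e-08), and under heat all 3 HPS32 libraries lay below all 3 HJX libraries.

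Os07g0209100 was at -0.62 ± 0.14 in HPS32 (edgeR adjusted p = 0.00066, 0.731 under total counts) and at 0.48 ± 0.14 in HJX (adjusted p = 0.00463). The difference of its responses was -1.09 ± 0.19 (edgeR adjusted p = 0.000439). At 28 °C it was 0.62 ± 0.14 higher in HPS32 without being called by edgeR (adjusted p = 0.198, 0.0205 to 0.574 over the alternatives), while DESeq2 called it (0.0265). Os12g0555400 was at -0.56 ± 0.13 in HPS32 and -0.95 ± 0.13 in HJX, and Os01g0170000 at -0.85 ± 0.29 and -1.40 ± 0.30. Os01g0170051 was at -0.71 ± 0.20 in HPS32 and -0.57 ± 0.20 in HJX, and its HJX call (edgeR adjusted p = 0.0242) was lost under total counts and when HJX replicate 1 or 2 at 28 °C, or 1 or 3 under heat, was left out. Between the lines under heat, Os04g0481100 and Os07g0209100 were lower in HPS32, at log2 differences of -1.33 ± 0.08 and -0.48 ± 0.14, and the call of Os07g0209100 was lost under total counts. Os12g0555400 was 0.32 ± 0.13 higher in HPS32 (edgeR adjusted p = 0.0498), a call lost on leaving out HJX or HPS32 libraries one at a time in many cases (up to 0.239). Os01g0170000 and Os01g0170051 overlap on opposite strands, so their reads may not be separable.

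The other steps of the pathway were read from lists set by the domain wording in the deposited descriptions. The lists held 120 genes besides the 4, of which 77 were tested. Under heat in HPS32 16 rose and 42 fell (35 and 25 under total counts), with a median log2 of -0.37 against -0.03 over all tested genes. In HJX 25 rose and 41 fell (31 and 33 under total counts), with a median of -0.47 against 0.03. Between the lines under heat 20 were higher in HPS32 and 25 lower (31 and 14 under total counts), and without heat library 3 of HJX 13 were higher. At 28 °C edgeR called 0 of the 77, with 8 at an unadjusted p under 0.05, and limma-voom called 0 and DESeq2 1. The heat responses of 11 were higher in HPS32 and those of 19 lower (20 and 13 under total counts). These counts, and those of the single lists below, stand beside 70.4% of all tested genes called for heat in HPS32, 74.9% for heat in HJX, 45.2% between the lines under heat and 29.3% for the difference of responses. Total-count scaling moved the whole table the same way: for heat in HPS32, 14369 of the 25473 tested genes were then higher and 5063 lower, against 8653 and 9272 with TMM. Nothing particular to the lists is read from their counts.

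Supply of myo-inositol, the acceptor of galactinol synthase, was read from 11 tested genes. In HPS32 3 rose and 5 fell under heat (6 and 4 under total counts), and in HJX 4 rose and 5 fell. The myo-inositol-1-phosphate synthase gene Os03g0192700, which makes the inositol skeleton, averaged 82.3 ± 0.42 CPM in HPS32 under heat and 53.6 ± 4.12 CPM in HPS32 at 28 °C, against 155.2 ± 3.37 CPM in HJX under heat and 50.8 ± 10.2 CPM in HJX at 28 °C. It rose by 1.61 ± 0.10 in HJX (edgeR adjusted p = 1.3e-10) and was lower in HPS32 than in HJX under heat, at a log2 difference of -0.92 ± 0.10 (edgeR adjusted p = 9.72e-07). Os07g0558300 and Os07g0558200 carry the domain wording of inositol monophosphatases, enzymes that free inositol from its phosphate, and their own substrates are not given. They were at -2.83 ± 0.21 and 0.66 ± 0.19 in HPS32 under heat. In HJX Os07g0558300 was at -2.90 ± 0.21 and Os07g0558200 at 1.39 ± 0.20. The monophosphatase family gene Os07g0191000 was 0.70 ± 0.10 higher in HPS32 than in HJX under heat.

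Myo-inositol oxygenase, Os06g0561000, which diverts inositol towards cell wall sugars, was higher under heat in both lines and more so in HJX. It averaged 153.0 ± 4.72 CPM in HPS32 under heat and 91.4 ± 12.3 CPM in HPS32 at 28 °C, against 784 ± 28.6 CPM in HJX under heat and 103.0 ± 14.1 CPM in HJX at 28 °C. It rose by 0.74 ± 0.10 in HPS32 (edgeR adjusted p = 2.08e-06) and by 2.93 ± 0.11 in HJX (adjusted p = 7.3e-15). The difference of the responses was -2.19 ± 0.14 (edgeR adjusted p = 2.74e-09). All 3 HPS32 libraries lay below all 3 HJX libraries under heat.

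Acid alpha-galactosidases, which split galactose from raffinose in the vacuole or cell wall, had 4 tested genes. In HPS32 1 rose and 3 fell under heat (2 and 1 under total counts), and in HJX 3 rose and 1 fell. Os07g0679300 averaged 54.5 ± 2.93 CPM in HPS32 under heat and 36.4 ± 4.46 CPM in HPS32 at 28 °C, against 127.4 ± 6.90 CPM in HJX under heat and 35.0 ± 4.76 CPM in HJX at 28 °C. It rose by 0.58 ± 0.10 in HPS32 and by 1.86 ± 0.10 in HJX (edgeR adjusted p = 2.39e-05 and 1.39e-12). Os10g0492900 averaged 189.1 ± 5.24 CPM in HPS32 and 574 ± 24.1 CPM in HJX under heat (log2 -1.60 ± 0.07, edgeR adjusted p = 3.17e-12). Os10g0493600 was at -0.37 ± 0.10 in HPS32 under heat, a value that turned to 0.19 under total counts.

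UDP-sugar supply had 7 tested genes. In HPS32 5 fell (4 fell and 3 rose under total counts), and in HJX 4 fell and 2 rose. The galactose donor of galactinol synthase, UDP-galactose, is made from UDP-glucose by UDP-glucose 4-epimerase. The 4 identifiers held for that enzyme are described in the table by a dehydratase domain and so dropped out of the list by its own rule; their values were taken after this was seen. Os05g0595100 averaged 150.9 ± 10.3 CPM in HPS32 under heat and 107.9 ± 5.76 CPM in HPS32 at 28 °C, against 289 ± 16.0 CPM in HJX under heat and 93.2 ± 8.88 CPM in HJX at 28 °C. It rose by 0.48 ± 0.08 in HPS32 and by 1.63 ± 0.08 in HJX (edgeR adjusted p = 2.65e-05 and 8.18e-13). Os08g0374800 fell by 0.60 ± 0.07 in HPS32 and by 0.90 ± 0.07 in HJX, and the HPS32 fall was lost under total counts (-0.04). Os09g0526700 fell by 1.22 ± 0.12 in HPS32 and by 0.40 ± 0.12 in HJX, and the HJX fall was lost under total counts (-0.10). Os09g0323000 was at -0.11 ± 0.19 in HPS32 and -0.03 ± 0.19 in HJX, without a call, and under total counts at 0.45 (edgeR adjusted p = 0.0338) and 0.27 (adjusted p = 0.202). In the list itself Os04g0608100, with the galactokinase signature of enzymes that phosphorylate galactose, fell by 3.02 ± 0.10 in HPS32 and by 2.90 ± 0.10 in HJX. Os06g0701200 rose by 0.54 ± 0.07 in HJX, and under heat Os03g0832600 was at -0.77 ± 0.07 and Os04g0613700 at 0.44 ± 0.09 in HPS32 over HJX.

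Sucrose, the acceptor of raffinose synthase, was covered by 22 tested genes of sucrose synthesis and cleavage. In HPS32 3 rose and 15 fell under heat (7 and 11 under total counts), and in HJX 5 rose and 15 fell. Os01g0919400, with sucrose synthase and sucrose phosphatase domains, averaged 13.7 ± 0.37 CPM in HPS32 under heat and 85.2 ± 0.57 CPM in HPS32 at 28 °C, against 8.86 ± 1.19 CPM in HJX under heat and 95.8 ± 15.1 CPM in HJX at 28 °C. It fell by 2.63 ± 0.11 in HPS32 and by 3.44 ± 0.11 in HJX. Os04g0535600, of the invertase type that cleaves sucrose, rose by 0.56 ± 0.10 in HPS32 and by 0.96 ± 0.10 in HJX. Between the lines under heat the sucrose phosphatase genes Os05g0144900 and Os01g0376700, of the last step of sucrose synthesis, were at -1.41 ± 0.22 and 0.68 ± 0.13 in HPS32 over HJX.

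Glycosyl transferase family 8, the wider family of the galactinol synthases, had 27 other tested genes, most of which serve other reactions. In HPS32 8 rose and 9 fell under heat (16 and 5 under total counts), and in HJX 8 rose and 13 fell (11 and 9 under total counts). Os11g0124900 rose by 1.57 ± 0.12 in HPS32 and by 0.93 ± 0.12 in HJX. Os03g0330000 rose by 0.99 ± 0.08 in HPS32 and by 1.18 ± 0.08 in HJX. The largest falls were those of Os03g0678800, -2.87 ± 1.12 in HPS32 and -4.27 ± 1.25 in HJX. Its HPS32 call (edgeR adjusted p = 0.0468) ranged up to 0.27 over the alternatives and was lost in most of them, and its HJX call was lost with limma-voom (0.167). Under heat Os12g0578500 was at -0.64 ± 0.07 and Os07g0681700 at 0.67 ± 0.14 in HPS32 over HJX.

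Heat stress transcription factors are known to bind galactinol synthase promoters in Arabidopsis, and 22 of their genes were tested. In HPS32 5 rose and 12 fell under heat (9 and 5 under total counts), and in HJX 9 rose and 10 fell. Os01g0733200 rose by 1.66 ± 0.16 in HPS32 and by 2.15 ± 0.16 in HJX. Os09g0526600 rose by 1.59 ± 0.12 in HPS32 and by 2.16 ± 0.11 in HJX. Os03g0161900 fell by 2.78 ± 0.35 in HPS32 and by 1.78 ± 0.33 in HJX. Under heat 1 was higher and 11 lower in HPS32 than in HJX (3 and 7 under total counts), where 21.6% of all tested genes were higher and 23.6% lower, with Os08g0546800 at -1.05 ± 0.21 and Os01g0625300 at 1.01 ± 0.34. Leaving out HJX library 1 or 2 under heat, or HPS32 library 3, ended the call of Os01g0625300.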

How the data were processed

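Gene counts of 12 libraries were analysed, 3 in each of 4 groups set by the labelled line and treatment. Per the submitters' processing notes, HISAT2 2.0.5, featureCounts 1.5.0-p3 and DESeq2 1.20.0 were used, and the deposited columns are raw counts. The authors also deposited log2 fold changes between groups, used for comparison only, and gene lengths. The 12 normalized per-library columns were not used. The numbers on the heat columns match no single title, so these are named as libraries 1 to 3 of their group.

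Counts were fitted in R 4.3.3 with edgeR 4.0.16 (filterByExpr, TMM, a mean per group, robust quasi-likelihood F test, two-sided, Benjamini-Hochberg over 25473 genes, threshold 0.05). The SE is the log2 fold change divided by the square root of F. Alternatives were RLE and total-count scaling, 2 other filters, DESeq2 1.42.0, limma-voom (limma 3.58.1), the compared groups alone, a replicate block at 28 °C, and omission of each library. Omission of replicate 3 of both lines at 28 °C was added after the data were seen. The fit was tested on simulated data in which a small set of genes changed, evenly up and down, in HPS32 under heat alone. Such data do not probe scaling under the broad heat changes seen here.

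Members and lists were chosen with earlier results of these data known. Of the lists, all tested raffinose family genes are named. From the others came the called gene with the largest rise and the largest fall per comparison, among genes averaging 1 or more in log2 CPM. The 28 °C replicate numbers were checked for pairing, which the labels do not give. Same-numbered libraries of the lines had r = 0.448, 0.12 and 0.422 over genes averaging 1 or more in log2 CPM. Over all tested genes these were 0.289, 0.0756 and 0.275. Libraries of unlike number had r from -0.452 to 0.0783 over the first set, so replicate 2 stood out little. The main fit held no pairing, and the replicate block at 28 °C was an alternative only. Strand-specific counting is not stated. The planned promoter motif description was not run, since no sequence was used here.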

Additional observations from a re-analysis of the deposited data

Results flagged for a closer look

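Named pathway genes were singled out where the test of the difference between the heat responses (HPS32 minus HJX, edgeR interaction, adjusted p under 0.05) was passed. All such genes of the raffinose family and of the epimerase identifiers are listed. From each other list only the largest rise and the largest fall in this difference are listed, among genes averaging 1 or more in log2 CPM. Other named genes passed the test and are left out, among them Os07g0679300 (-1.28), Os10g0493600 (-0.68) and Os07g0681700 (0.70). Values are log2 differences.

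In the raffinose family the listed genes were Os04g0481100 (-1.36) and Os07g0209100 (-1.09). Around inositol they were Os06g0561000 (-2.19), Os03g0192700 (-0.99) and Os07g0191000 (0.79). The alpha-galactosidase Os10g0492900 was at -1.63. In UDP-sugar supply and among the epimerase identifiers they were Os03g0832600 (-0.70), Os04g0613700 (0.42), Os05g0595100 (-1.15), Os09g0526700 (-0.82) and Os08g0374800 (0.30). The call of Os08g0374800 was lost on leaving out any of 7 single libraries (adjusted p up to 0.0838), and that of Os04g0613700 without HJX heat library 3 (adjusted p = 0.0515). Among sucrose genes they were Os05g0144900 (-1.46) and Os01g0919400 (0.80), in glycosyl transferase family 8 Os12g0578500 (-0.66) and Os01g0727100 (0.76), and among heat stress transcription factors Os08g0546800 (-1.64). Groups of 3 libraries are too small for a test of single outlying values.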

How the results depend on the processing

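Of 416 alternative values of the 4 genes, 401 moved by less than the replicate SD and none of the called values changed sign. Total-count scaling, under which the median of all tested genes was 0.54 for heat in HPS32, 0.32 for heat in HJX, 0.28 between the lines under heat and 0.28 for the difference of responses (-0.03, 0.03, 0.03 and 0.02 with TMM), moved the rest for the most part. With it, heat in HPS32 gave 2.64 (Os06g0172800), 0.57 (Os08g0495800), -2.00 (GolS1) and -1.78 (GolS2). There 2 of the 4 genes were called higher, where 14369 of the 25473 tested genes were. Heat in HJX gave 3.88 (Os06g0172800), -2.48 (GolS1) and -1.45 (GolS2), the lines under heat -1.42 (Os06g0172800) and 0.51 (GolS1), and the difference of responses -1.24 (Os06g0172800) and 0.48 (GolS1). Pathway counts moved by over 1.5 times under total counts to 35 higher and 25 lower for heat in HPS32, 31 higher and 14 lower between the lines under heat, and 20 higher for the difference of responses. At 28 °C DESeq2 called 1. Among named values that passed the threshold with either scaling, those that changed sign under total counts were Os10g0493600 (0.19), Os12g0555400 (0.0026) and Os09g0323000 (0.45), each for heat in HPS32. Some values of Os01g0170051 and Os09g0323000 that passed with neither scaling also changed sign.

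Omission of single libraries gave 1.95 to 2.28 for Os06g0172800 under heat in HPS32 (2.28 without HPS32 replicate 3, and 2.28 without replicate 3 of both lines), -0.37 to -0.044 for the lines at 28 °C and -1.63 to -1.31 for its difference of responses. Pathway genes higher in HPS32 under heat numbered 13 to 22, and at 28 °C 0 to 1. With the replicate block at 28 °C the pathway counts were 17 and 42 for heat in HPS32 and 26 and 44 for heat in HJX. The block changed no call of the 4 genes and moved no pathway count by over 1.5 times. The causes were not tested. Depth limits Os08g0495800 most, with 61 to 127 reads per library at 28 °C.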
